A study of Mus musculus with 18 samples.

Results

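Liver tissue left beside tumours in wild type (WT) mice given diethylnitrosamine (DEN) as pups was compared with the liver of untreated WT mice by RNA-seq. The comparison took 6 of the 18 liver samples in the series, chosen by their labels: 3 WT normal livers and 3 WT non-tumour livers. All 6 came from C57BL/6 mice aged 36 weeks, and the non-tumour livers had received 25 mg/kg DEN by a single intraperitoneal injection on postnatal day 12. The rest of the series is WT tumours and the same 3 tissues from miR-181ab1 global knockout (GKO) mice of the same strain and age, whose 6 normal and non-tumour livers are used here for comparison. The study used male pups and compared littermates, and the labels do not say that the 3 samples of a group came from separate animals, so the p-values measure the spread between these samples. Mir181a-1 and Mir181b-1, the deleted miRNA genes, were listed at 0 in every WT and GKO normal and non-tumour liver, so the table does not check the genotype labels.

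DEN is a nitrosamine that becomes a DNA-ethylating agent after oxidation by CYP2E1, an enzyme concentrated in hepatocytes around the central vein. Ethylated guanine is repaired by MGMT, while unrepaired adducts cause the mutations from which tumours grow in the dividing liver of a young mouse. Non-tumour tissue of such a liver has been through the same exposure, and in this series it was sampled months later, so the comparison does not address the acute response. Liver tissue is mostly hepatocytes by RNA content, with Kupffer cells (the resident macrophages), sinusoidal endothelial cells, stellate cells and lymphocytes as smaller parts. In bulk RNA, fewer cells of a type and less RNA per cell cannot be told apart.

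Expression was deposited as TPM, a level per length of transcript scaled so that every library has the same total. Of 54838 genes in the table, 13440 had a mean of at least 0.5 TPM over the 6 livers and were tested with limma on log2(TPM+1). The values below are given for livers 1, 2 and 3 of a group in that order. A difference is the WT non-tumour mean minus the WT normal mean on the log2(TPM+1) scale, with the standard error of the fit, and understates the change of genes near 1 TPM. A centred difference is the same after subtracting each library's median log2 level.

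The hepatocyte gene Alb was high in all 6 livers, and 2 tumour markers were low. Alb, the gene of serum albumin, was at 31805, 39561 and 29049.8 TPM in the normal livers and 41169, 38007 and 39286 TPM in the non-tumour livers. Afp, the fetal liver protein that DEN tumours often express again, was at 1.92, 1.24 and 0.683 TPM in the normal and 2.38, 2.11 and 0.497 TPM in the non-tumour livers, against 2353, 3334 and 66.1 TPM in the 3 WT tumours. Gpc3, another tumour marker of the liver, was at 0.383, 0.4601 and 0.142 and 1.22, 0.182 and 0.355 TPM in the normal and non-tumour livers and at 213, 277 and 108 TPM in the tumours. Both markers were far below the tumour levels in all 3 non-tumour livers. The summed level of 30 DEN tumour markers was 519, 730 and 1965 TPM in the normal and 396, 1620 and 2565 TPM in the non-tumour livers. In the WT tumours it was 16403, 17330 and 5469 TPM. Of the 20 markers tested, 17 had a difference above 0, and after centring 14 were above and 6 below 0. Of all 13440 genes tested, 10707 were above 0 before and 5972 after centring.

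One library stood apart. WT non-tumour liver 2 had Pearson correlations of 0.908 to 0.929 with the other 5 livers over log2(TPM+1), while all other pairs were at 0.952 to 0.974. In this liver 158 genes were at least 4-fold above all 5 others and 50 at least 4-fold below, against at most 18 and 7 in any other liver. Gstm3, a glutathione transferase, was at 25.7, 27.6 and 32.7 TPM in the normal livers and 125, 8423 and 38.5 TPM in the non-tumour livers. The Kupffer cell receptor Clec4f was at 75.2, 5.95 and 124 TPM in the non-tumour livers, and the proliferation gene Mki67 at 0.266, 4.09 and 0.178 TPM. Gstm3, Clec4f and Mki67 were chosen here after their values were seen. The summed level of the 50 genes of the G2 and M phases was 384 TPM in this liver, against 119 and 115 TPM in the other non-tumour livers and 133 to 777 TPM in the WT tumours. That of the conjugation and NRF2 genes was 39005 TPM, against 11366 and 13143 TPM. Afp and Gpc3 do not settle whether the sampled tissue held a small lesion, which was not tested. Counts of list members that moved by 2 or more without this liver are given both ways, and the medians without it are drawn in the plot of list medians.

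DEN-exposed livers had a smaller share of mitochondrial transcripts and a higher median level over the tested genes. Genes of the mitochondrial genome took 16.7%, 17.4% and 10.7% of all TPM in the normal livers, or 14.9 ± 3.67% (SD, n = 3), and 9.94%, 5.34% and 4.52% in the non-tumour livers, or 6.60 ± 2.92% (SD, n = 3). The groups did not overlap, and the exact permutation test gave a 2-sided p of 0.1, the smallest that 3 against 3 can give. Nuclear protein-coding genes took the larger part of the rest, with 80.0%, 80.0% and 86.8% of TPM in the normal livers and 87.7%, 92.9% and 93.9% in the non-tumour livers. The remaining nuclear genes took 2.77 ± 0.417% (SD, n = 3) and 1.89 ± 0.421% (SD, n = 3), again without overlap. The mitochondrial ribosomal RNA mt-Rnr1 was at 569, 379 and 225 TPM in the normal and 167, 68.6 and 98.7 TPM in the non-tumour livers, and mt-Rnr2 at 341, 187 and 135 and 93.5, 39.3 and 42.1 TPM; both were chosen after their values were seen. The median log2(TPM+1) of the tested genes moved from 2.30 to 2.67, a shift of 0.38. Because a total fixed to one sum ties these shares together, the counts below are also given after centring.

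**Figure D1:**
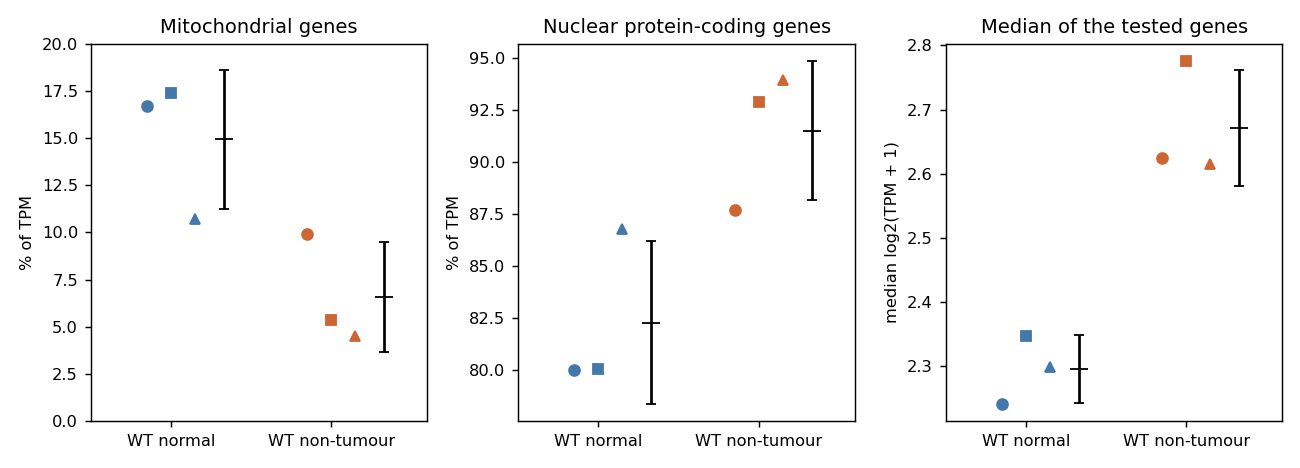
Shares of TPM and the median level in the 6 WT livers. Circles, squares and triangles are livers 1, 2 and 3 of a group, horizontal bars the mean and vertical bars the SD; the left and middle panels are in percent of TPM, the right panel in log2(TPM+1), and the right 2 vertical axes do not start at 0. The mitochondrial share was 10.7% to 17.4% in the normal livers and 4.52% to 9.94% in the non-tumour livers.

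A single gene passed the adjusted threshold of 0.05, which is 0.00744% of those tested, and it rose. At an unadjusted p under 0.05, 3008 genes (22.4%) were higher and 274 (2.04%) lower in the non-tumour livers. After centring the split turned to 668 higher (4.97%) and 1188 lower (8.84%), with 1 gene past the adjusted threshold. Without WT non-tumour liver 2 the centred counts were 749 higher (5.64%) and 1028 lower (7.74%) of 13281 genes, with none past the adjusted threshold in limma. The groups did not overlap for 4170 genes (31% of those tested) that were higher and 390 (2.9%) that were lower. The adjusted count ranged from 0 to 46 over the alternatives tried, and a test on recovered reads with limma voom called 0.

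Classes of genes had unequal shares of lower genes after centring. Of 11173 protein-coding genes, 6.98% were lower and 5.20% higher at an unadjusted p under 0.05 after centring, while 20.4% of 746 processed pseudogenes were lower and 4.69% higher. The 48 small nuclear RNAs tested had 20.8% lower and 0 higher. Before centring the median difference was 0.35 for protein-coding genes, 0.03 for processed pseudogenes and -0.29 for small nuclear RNAs. Centring takes one amount from every gene of a library, also from genes near 0 TPM, where log2(TPM+1) shows little of a shift. A larger lower share after centring thus does not by itself show that a class fell. Of the 33 genes of the mitochondrial genome 18 were lower and 0 higher, with a median difference of -1.19 before centring. Reads of a pseudogene and of its parent can be split either way by the counting, and the strand setting is not given in the sources used here.

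The gene that rose, Mrpl48-ps, is a processed pseudogene of the mitochondrial ribosomal protein gene Mrpl48 at chromosome 4, 88599175 to 88599810 (mm10, minus strand). It was at 1.62, 1.77 and 1.51 TPM in the normal livers and 21.4, 25.2 and 16.3 TPM in the non-tumour livers, which are 7, 10 and 10 reads against 112, 131 and 87 reads. The difference was 3.04 ± 0.20, with an adjusted p of 0.0156 from limma. Centring left 2.67, and leaving out non-tumour liver 2 as well left 2.58, where the adjusted p of 0.0585 missed the threshold; over all alternatives it lay between 0.00970 and 0.194. Its parent gene Mrpl48 was at 6.77, 6.69 and 7.99 TPM in the normal and 5.75, 9.78 and 6.82 TPM in the non-tumour livers, with overlapping groups. In the GKO livers Mrpl48-ps was at 0.577, 1.37 and 2.03 TPM in the normal and 15.5, 1.405 and 1.17 TPM in the non-tumour tissue, so that 1 of 3 GKO non-tumour livers was high.

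Lyz2, the lysozyme of macrophages and other myeloid cells at chromosome 10, 117277331 to 117282321, came next and missed the adjusted threshold at 0.0532 in limma. It was at 24.8, 20.7 and 24.7 TPM in the normal livers and 91.6, 95.9 and 105 TPM in the non-tumour livers, a 4.16-fold ratio of means with little spread in either group. Its centred difference was 1.64, and 1.70 without non-tumour liver 2. All other genes had an adjusted p of 0.107 or more in limma, so none of the genes described from here on passed the test in this comparison. Counts of members of a list, by contrast, use an unadjusted p under 0.05, and are read against the shares of all genes given above. A gene higher in every non-tumour liver is read against 31% of all genes tested, and one lower in every such liver against 2.9%.

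The other genes with the smallest p-values and groups that did not overlap fell into coding genes of known function and short or predicted transcripts. Among the first, Plvap, which encodes the diaphragm protein of endothelial fenestrae, was at 26.5, 25.99 and 25.7 TPM in the normal and 90.04, 69.7 and 67.05 TPM in the non-tumour livers, a difference of 1.49 ± 0.19 and 1.11 centred. Aacs, Cdkn2a and Phlda3 belong to the same set and are given with their pathways below. The predicted genes were thinly covered. Gm14513 was at 1, 0 and 2 reads in the normal and 47, 39 and 20 reads in the non-tumour livers, and Gm19680 at 3, 3 and 7 and 65, 102 and 52 reads. Gm44075, Gm21769 and Gm17662 had no reads in any normal liver and 4, 6 and 4, 4, 2 and 4 and 2, 1 and 4 reads in the non-tumour livers, which is too few for a fold.

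The smallest p-values among lower genes all had an adjusted p of 0.114. Mir122, the precursor of the most abundant miRNA of hepatocytes, was at 31.2, 63.1 and 17.4 TPM in the normal livers and 5.53, 3.71 and 3.62 TPM in the non-tumour livers, but on 14, 37 and 12 and 3, 2 and 2 reads. Tmed5, a cargo receptor of the early secretory pathway, was at 130.4, 93.9 and 135 against 48.8, 46.3 and 55.4 TPM, a difference of -1.23 ± 0.21. Lars2, the mitochondrial leucyl-tRNA synthetase, was at 23.9, 21.7 and 13.3 against 7.35, 6.64 and 5.06 TPM, with -1.46 ± 0.26. Non-tumour livers were lower for all 3 genes with no overlap, which the choice of these genes required. The pseudogene Gm13339 was at 43.6, 38.6 and 24.4 against 7.398, 8.404 and 5.62 TPM, and the female-biased cytochrome P450 Cyp2c69 at 2.08, 3.81 and 5.68 against 0.5501, 0.208 and 0.608 TPM. The other 7, Gm26804, Gm23232, Gm11408, Gm29107, Gm4017, Gm22933 and Gm17160, were at 10.4 TPM or less in every liver.

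The genes that act first on DEN did not separate the groups. Cyp2e1 was at 4856, 6669.5 and 4744 TPM in the normal livers and 6199.8, 8049 and 8350.4 TPM in the non-tumour livers, a difference of 0.48 ± 0.24 (adjusted p = 0.251) and 0.10 centred. Mgmt was at 14.9, 17.9 and 13.8 against 24.4, 12.6 and 20.4 TPM, with 0.25 ± 0.27 (adjusted p = 0.558) and, turning sign, -0.13 centred. Of 25 DNA repair genes tested, 5 were higher and 0 lower, and after centring 1 was higher and 1 lower. The median of the list was -0.06 after centring, and that of all genes tested -0.05. Apex1, the nuclease that cuts DNA at abasic sites, was at 0.932, 0.554 and 2.09 against 3.51, 11.1 and 7.898 TPM (centred 1.53, adjusted p = 0.222). Mpg, the glycosylase that removes alkylated bases, was at 1.099, 1.4995 and 1.58 against 2.34, 3.101 and 2.64 TPM, and Xpc, which recognises bulky lesions, at 3.19, 2.19 and 3.35 against 4.08, 7.38 and 5.502 TPM. After centring Mpg was at 0.25 and Xpc at 0.37, both with an unadjusted p above 0.05.

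A few genes of growth arrest separated the groups, while most members of their lists did not. The p53 pathway answers DNA damage by stopping the cell cycle or by cell death, while senescent cells stay arrested and secrete inflammatory factors. Cdkn2a, the locus of the arrest proteins p16 and p19ARF at chromosome 4, 89274471 to 89294653, was at 0.503, 0.192 and 0.409 TPM in the normal livers and 3.32, 4.075 and 2.55 TPM in the non-tumour livers. The difference was 1.65 ± 0.21 (adjusted p = 0.114), 1.27 centred and 1.20 without non-tumour liver 2. Even the lowest non-tumour liver was several times above the highest normal liver.

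Phlda3, a p53 target that restrains AKT signalling, was at 0.661, 0.938 and 1.35 TPM in the normal and 5.39, 7.93 and 4.68 TPM in the non-tumour livers, 1.81 ± 0.24 (adjusted p = 0.114) and 1.43 centred. Aen, a p53-induced nuclease of cell death, was at 1.42, 1.07 and 1.12 against 3.17, 4.496 and 4.24 TPM, 1.17 ± 0.19 and 0.79 centred. Both genes were higher in every non-tumour liver, as 31% of all genes were, and the choice of Phlda3 required it. Ccng1 was at 8.26, 9.13 and 6.98 against 11.4, 14.6 and 12.7 TPM and Trp53 itself at 7.28, 8.32 and 6.68 against 13.9, 19.5 and 9.84 TPM, but their centred differences of 0.23 and 0.45 had an unadjusted p above 0.05. Cdkn1a, the classical p53 target p21, was at 1.58, 1.74 and 5.15 TPM in the normal livers and 4.38, 17.6 and 2.39 TPM in the non-tumour livers. Its groups overlapped, and the difference of 0.99 ± 0.65 (adjusted p = 0.3497) became -0.04 when centred and without non-tumour liver 2. Of 24 p53 targets tested, 10 were higher and 0 lower, and 3 and 0 after centring, where the median of the list was 0.17. Without non-tumour liver 2 the centred counts were 3 and 1, with a median of 0.08. Of 20 G1 cyclins and inhibitors 1, Cdkn2a, was higher and 0 lower after centring, a share near that of all genes.

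Of 14 senescence and secretory genes, 6 were higher and 0 lower, and 4 and 0 after centring. The median was 0.50 centred, and 0.31 without non-tumour liver 2. Igfbp7, a secreted factor of arrested cells and vessels, was at 73.1, 59.01 and 97.9 TPM in the normal and 295, 148 and 181.3 TPM in the non-tumour livers (centred 1.02, adjusted p = 0.282). Lmnb1, a nuclear lamin whose loss is a mark of senescence, was not lower but higher, at 1.44, 1.102 and 1.26 against 3.04, 5.499 and 3.19 TPM (centred 0.71, adjusted p = 0.255). Ccl2, the chemokine that draws monocytes, was at 0.129, 0.494 and 0.337 against 2.03, 8.39 and 1.15 TPM, with the top value again in liver 2, and its centred difference was 1.21 with all 6 livers and 0.64 without that liver.

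**Figure D2:**
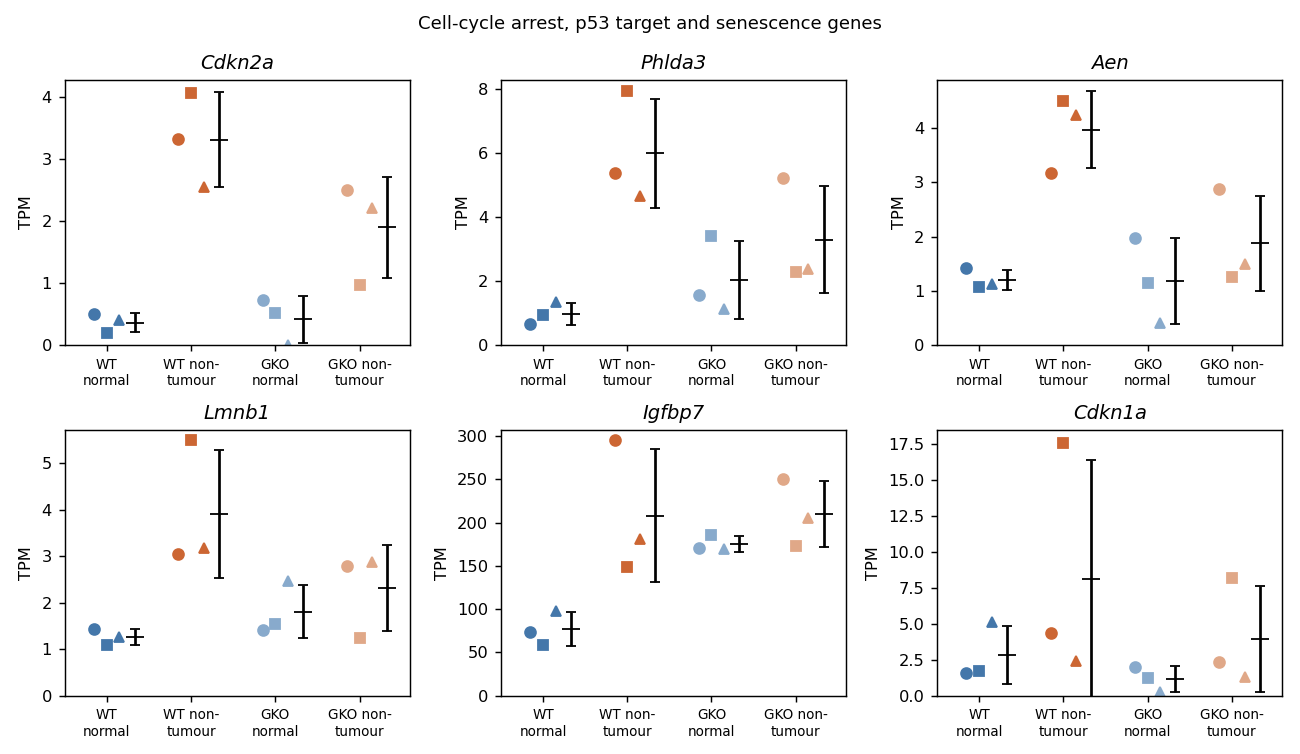
Levels in TPM of 6 genes of growth arrest, the p53 pathway and senescence in WT and GKO normal and non-tumour livers. Circles, squares and triangles are livers 1, 2 and 3 of a group, with the mean and the SD beside them, and the axis ends at 0 where an SD would reach below it. For Cdkn2a, Phlda3 and Aen the 3 WT non-tumour livers sit above the 3 WT normal livers, while for Cdkn1a a single liver at 17.6 TPM carries the mean.

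Proliferation genes showed little outside of one liver. Pcna, the sliding clamp of DNA replication, was at 11.8, 13.1 and 13.8 TPM in the normal and 19.3, 36.5 and 20.5 TPM in the non-tumour livers, with a centred difference of 0.49 (adjusted p = 0.399) and 0.26 without liver 2. Mki67 was at 0.0878, 0.179 and 0.133 against 0.266, 4.09 and 0.178 TPM, and Top2a, the topoisomerase of dividing cells, at 0.09804, 0.125 and 0.08504 against 0.162, 2.64 and 0.0398 TPM. Both were near background in all livers but non-tumour liver 2, and Top2a was chosen after its values were seen. Cks2 was at 30.6, 39.2 and 41.1 against 48.4, 88.3 and 53.7 TPM (centred 0.35). Of 25 S phase genes 8 were higher before centring and 0 after it, and of 30 genes of the G2 and M phases 4 and 0. Of those 30 genes, 16 passed the level filter without liver 2. Over these their centred median was 0.40 with all 6 livers and 0.01 without liver 2.

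Many genes of fatty acid synthesis were higher after DEN. Hepatocytes turn glucose into fat by passing it through glycolysis to pyruvate and building fatty acids from the acetyl groups with Acly, Acaca and Fasn. The transcription factors ChREBP and SREBP1 drive this programme after feeding. Of 27 lipogenic genes tested, 17 were higher and 0 lower, which is read against 22.4% and 2.04% of all genes. After centring 10 were higher and 1 lower, against 4.97% and 8.84% of all genes, and the counts were 10 and 2 without non-tumour liver 2. The centred median was 0.53, and 0.47 without that liver. The labels give no feeding state and no hour of collection.

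Pklr, the liver pyruvate kinase at chromosome 3, 89136142 to 89146784, was at 8.56, 12.7 and 5.83 TPM in the normal livers and 32.2, 41.1 and 38.3 TPM in the non-tumour livers. The difference was 1.98 ± 0.28 (adjusted p = 0.114), 1.60 centred and 1.58 without liver 2. The highest normal liver was well below the lowest non-tumour liver. Pklr is the gene in which the response of transcription to glucose was worked out, through a carbohydrate response element (ChoRE) that binds ChREBP. Its promoter is shown for that reason, from RefSeq on GRCm38.p6, chr3:89136373-89136672, plus strand, around the start of the gene, with the ChoRE match in capitals:

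Pklr: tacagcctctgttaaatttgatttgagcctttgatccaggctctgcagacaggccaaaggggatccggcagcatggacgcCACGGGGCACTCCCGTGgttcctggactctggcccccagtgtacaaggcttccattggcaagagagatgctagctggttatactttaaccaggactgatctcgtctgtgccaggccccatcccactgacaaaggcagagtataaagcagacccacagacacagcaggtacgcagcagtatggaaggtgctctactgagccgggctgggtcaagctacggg

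The letters searched were CANGNG and CNCNTG with 5 free bases between them, on both strands, a pattern chosen after the Pklr values were seen. The match starts at position -170 from the start site, and 183 of 32851 RefSeq promoters of this length (0.557%) hold one. Of the 21 lipogenic genes with a promoter in that table, which have 27 promoters, 1 (Pklr) holds a match. A match of letters is a description and does not show that the factor was bound.

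Aacs, which activates acetoacetate for lipid synthesis, was at 1.87, 2.598 and 1.04 TPM in the normal and 9.41, 12.6 and 8.93 TPM in the non-tumour livers, 2.02 ± 0.26 (adjusted p = 0.114) and 1.64 centred. Mid1ip1, which promotes polymerisation of acetyl-CoA carboxylase, was at 9.205, 15.9 and 10.7 against 29.9, 31.9 and 25.9 TPM, 1.25 ± 0.23 and 0.88 centred. For each of Pklr, Aacs and Mid1ip1 the groups did not overlap and the centred difference barely moved without non-tumour liver 2, at 1.56 for Aacs and 0.87 for Mid1ip1. The choice of Aacs required groups without overlap.

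The enzymes at the core of the pathway, chosen here for their role after their values were seen, were more variable. Fasn was at 9.73, 9.04 and 3.34 TPM in the normal and 22.8, 74.7 and 11.2 TPM in the non-tumour livers, so that liver 2 was far above its group, and the centred difference was 1.48 with and 0.81 without it. Acly was at 6.33, 8.21 and 9.75 against 12.6, 36.6 and 18.6 TPM (centred 0.89 and 0.54), and Thrsp, a lipogenic gene induced by thyroid hormone, at 7.47, 7.15 and 4.2015 against 16.96, 55.1 and 15.3 TPM (centred 1.46 and 0.95). Srebf1, the gene of SREBP1, was at 22.98, 33.01 and 21.2 against 92.6, 42.6 and 59.02 TPM, and here the centred value was larger without liver 2, at 1.19 against 0.88. Scd1, the desaturase that makes oleate and 1 of the study's 5 candidate genes, did not share the direction, with 1146, 799 and 688 against 1664, 675 and 345 TPM and a difference of -0.23 ± 0.55 (adjusted p = 0.796).

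**Figure D3:**
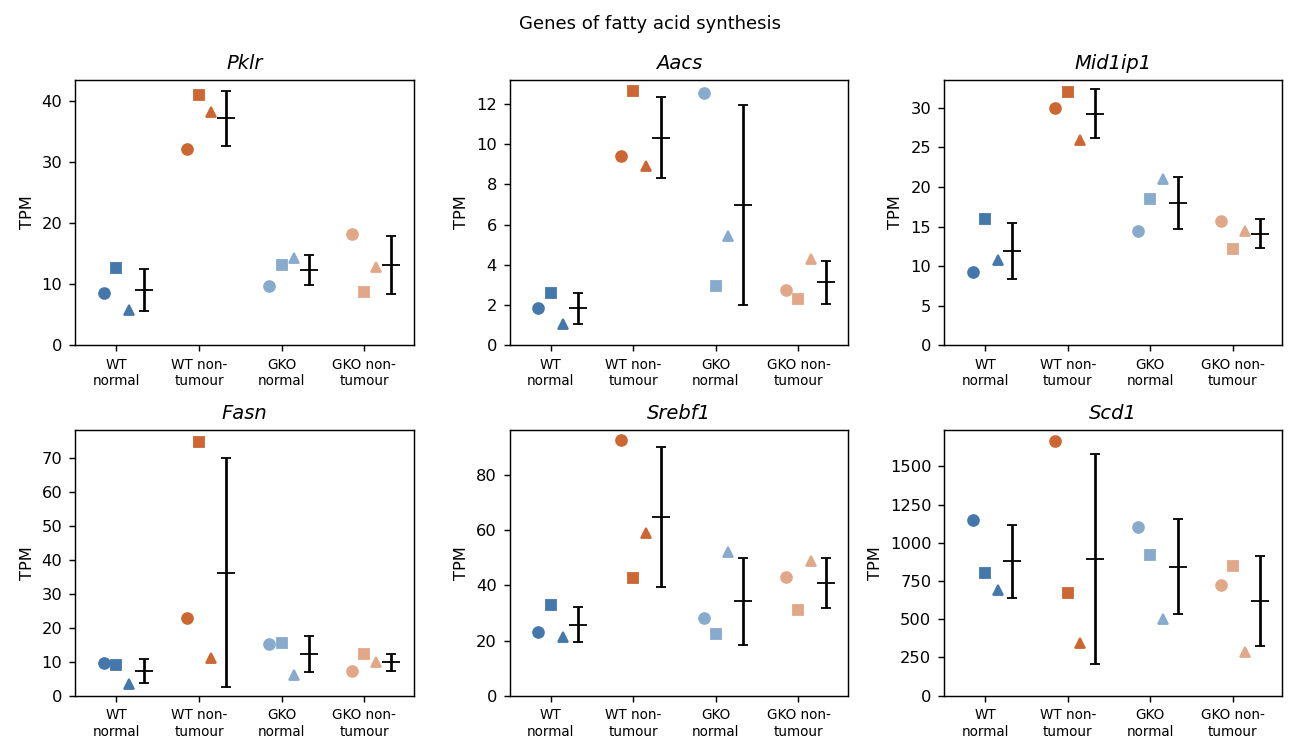
Levels in TPM of 6 genes of fatty acid synthesis in WT and GKO normal and non-tumour livers, drawn as in the plot of arrest genes. For Pklr, Aacs, Mid1ip1, Fasn and Srebf1 all 3 WT non-tumour livers sit above the WT normal livers, while for Scd1 the groups overlap.

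Glycolysis and cholesterol synthesis showed further higher genes. Of 29 genes of gluconeogenesis and glycolysis, 6 were higher and 1 lower after centring, among them Pklr. Eno1, the enolase of most tissues, was at 69.9, 81.3 and 91.3 TPM in the normal and 143, 214 and 161 TPM in the non-tumour livers (centred 0.70, adjusted p = 0.233), and Pkm, the pyruvate kinase of non-hepatocytes and tumours, at 4.09, 2.84 and 6.05 against 9.25, 9.72 and 10.4 TPM (centred 0.69, adjusted p = 0.315). All 3 non-tumour livers were above the normal livers for both, as for 31% of all genes. Of 26 genes of cholesterol synthesis and uptake, 8 were higher and 0 lower, and 5 and 0 after centring.

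Acat2, which makes the first acetoacetyl building block of cholesterol, was at 14.8, 14.3 and 16.6 TPM in the normal and 27.8, 118 and 31.3 TPM in the non-tumour livers. Liver 2 was highest by a wide margin. Without it the centred difference of Acat2 was 0.59, and the centred median of the list went from 0.88 to 0.21.

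Genes of fat storage and of fatty acid oxidation went both ways, and the storage genes named here are on the higher side. Cideb, a protein of lipid droplets and of VLDL loading, was at 9.997, 20.6 and 11.1 TPM in the normal and 29.1, 54.2 and 41.7 TPM in the non-tumour livers (centred 1.17). Pparg, whose product drives fat storage in fatty liver, was at 4.49, 6.25 and 3.02 against 11.6, 17.4 and 8.699 TPM (centred 0.90), and Apoa4, an apolipoprotein that rises with hepatic fat, at 193, 189 and 158 against 272, 442 and 502 TPM (centred 0.75). Of 21 lipid droplet genes 3 were higher and 1 lower after centring, with a median of 0.09 and, without liver 2, 0.05. Of 36 genes of fatty acid oxidation and the PPAR alpha programme 1 was higher and 4 lower, with a median of -0.36 and, without liver 2, -0.22. Cyp4a10, a PPAR alpha target that oxidises fatty acids at their end, was at 1049, 1291 and 629 against 411, 315 and 726 TPM (centred -1.43, adjusted p = 0.250025), with overlap for liver 3. Acadvl, the first enzyme of mitochondrial oxidation of long chains, was the higher one, at 18.8, 28.2 and 24.5 against 41.8, 69.7 and 109 TPM (centred 1.13).

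Macrophage genes were higher in the DEN-exposed livers, although 2 Kupffer cell receptors were low in one of them. Cd68, a lysosomal protein of macrophages, was at 4.804, 3.04 and 6.402 TPM in the normal livers and 14.7, 25.2 and 23.9 TPM in the non-tumour livers, 1.96 ± 0.30 (adjusted p = 0.114) and 1.59 centred. The complement genes C1qb and C1qc, which Kupffer cells express, were at 28.6, 17.5 and 30.9 against 78.5, 58.4 and 144 TPM and 14.3, 11.5 and 18.3 against 57.1, 32.03 and 88.5 TPM, with centred differences of 1.39 and 1.47. Adgre1, the F4/80 antigen, was at 0.546, 0.973 and 0.976 against 2.63, 2.004 and 4.76 TPM (centred 0.75). All 4 genes were higher in every non-tumour liver, as 31% of all genes were. So was Lyz2, whose choice required it.

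Clec4f and Timd4, 2 receptors that mark resident Kupffer cells, did not share this pattern in liver 2. Clec4f was at 50.1, 36.7 and 43.3 TPM in the normal and 75.2, 5.95 and 124 TPM in the non-tumour livers, and Timd4 at 2.17, 0.984 and 2.03 against 5.15, 0.113 and 6.76 TPM; both were chosen after their values were seen. The difference of Clec4f was -0.12 with all 6 livers and, centred and without liver 2, 0.83 (adjusted p = 0.311). Of 15 Kupffer cell markers 7 were higher and 0 lower, and 4 and 0 after centring with a median of 0.39. Without liver 2, 10 of 16 were higher after centring, with a median of 1.14. The summed level of the list was 394, 392 and 536 TPM in the normal livers and 859, 335 and 926 TPM in the non-tumour livers. Plac8, a gene of recruited monocytes, was at 4.903, 4.52 and 3.55 against 11.4, 6.77 and 11.3 TPM (centred 0.62), and of 9 markers of recruited macrophages and dendritic cells 1, Lyz2, was higher after centring. Neutrophil markers were mostly below the filter, with 4 of 14 tested and 0 called.

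Endothelial genes differed in part. Cdh5, the cadherin of endothelial junctions, was at 2.35, 2.49 and 4.19 TPM in the normal and 7.44, 11.9 and 8.47 TPM in the non-tumour livers, 1.36 ± 0.25 and 0.99 centred. Kdr, the main VEGF receptor, was at 2.76, 1.83 and 2.47 against 4.14, 4.16 and 5.56 TPM, but its centred difference was 0.37 (adjusted p = 0.4899). Of 19 sinusoidal endothelial markers 1 was higher and 1 lower after centring, and 5 and 1 without liver 2. Of 8 markers of capillaries and larger vessels, Plvap alone was higher after centring.

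**Figure D4:**
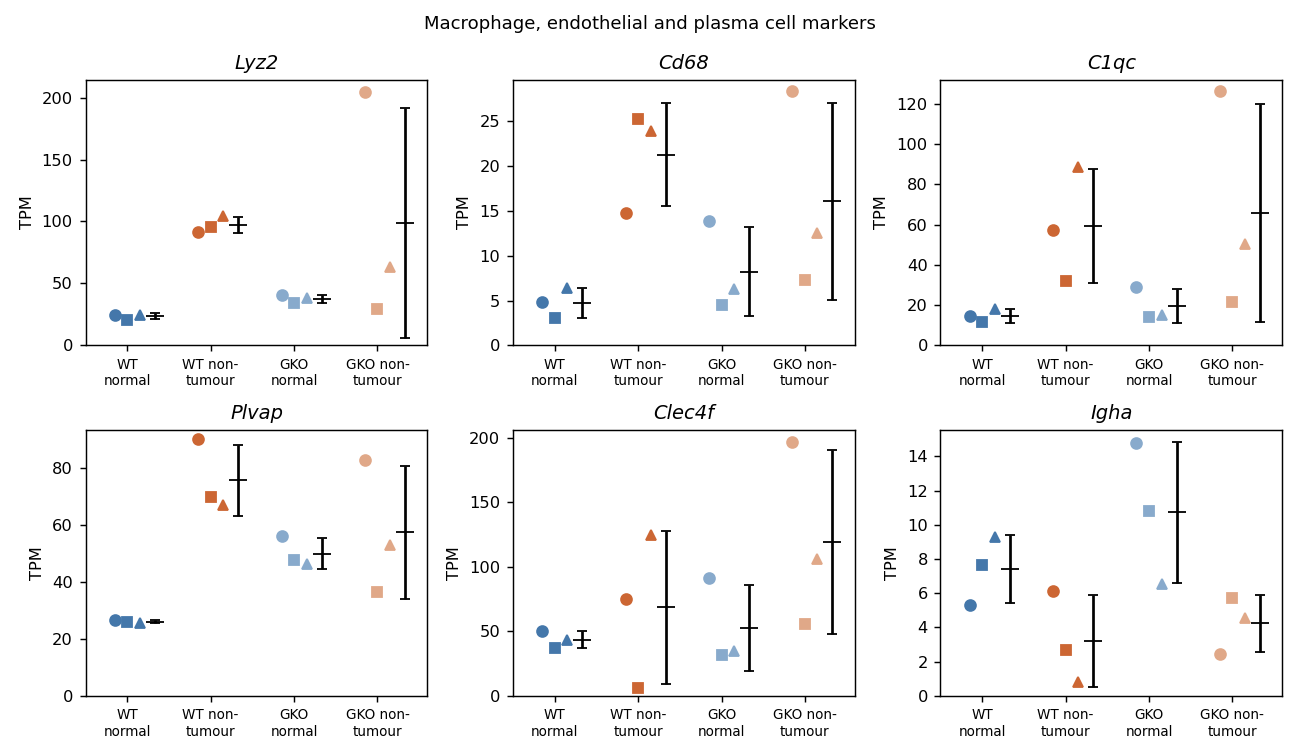
Levels in TPM of 6 marker genes of cell types in WT and GKO normal and non-tumour livers, drawn as in the plot of arrest genes. Lyz2, Cd68 and C1qc are higher in all 3 WT non-tumour livers than in the WT normal livers, while Clec4f is at 5.95 TPM in WT non-tumour liver 2 and above the normal livers in the other two.

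Matrix genes were higher before centring but few kept an unadjusted p under 0.05 after it. Of 25 collagens and matrix genes 10 were higher and 0 lower, and 1 and 0 after centring. Sparc, a matrix protein of stellate and endothelial cells, was at 16.99, 8.35 and 17.3 TPM in the normal and 37.7, 90.6 and 25.2 TPM in the non-tumour livers (centred 1.26, adjusted p = 0.3199). Vim, the intermediate filament of mesenchymal cells, was at 5.47, 3.87 and 6.10003 against 13.8, 14.6 and 7.23 TPM (centred 0.65, adjusted p = 0.374). The fibrillar collagens were low, with Col3a1 at 1.695, 1.18 and 1.698 against 6.15, 8.63 and 2.08 TPM and Col1a2 at 0.853, 0.915 and 1.06 against 2.72, 3.14 and 1.38 TPM. Col1a1, chosen after its values were seen, was at 0.808, 1.58 and 0.8904 against 4.86, 8.45 and 1.29 TPM. For Col3a1 and Col1a2 the groups did not overlap, with the narrowest gap in liver 3, and the centred differences were 0.87 and 0.40. Of 17 markers of stellate cells and fibroblasts 1 (Gas6, a ligand of AXL, at 25.5, 32.5 and 27.2 against 51.5, 48.01 and 82.5 TPM) was higher after centring and 1 lower.

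Of 21 genes of TGF beta signalling 1 was higher and 3 lower after centring. The receptor Tgfbr2 was at 1.51, 1.48 and 1.66 TPM in the normal and 3.14, 7.299 and 4.16 TPM in the non-tumour livers (centred 0.76), and the activin antagonist Fst at 2.63, 4.09 and 5.99 against 2.12, 0.427 and 0.937 TPM (centred -1.68). Both had groups that did not overlap. Ctnnb1, the beta-catenin gene, was at 3.32, 6.55 and 5.17 against 13.3, 33.9 and 23.3 TPM, 1.97 ± 0.36 and 1.60 centred, and stood first among 20 regulators of EMT and adhesion, of which 2 were higher and 0 lower after centring, with 1 and 3 without non-tumour liver 2. Markers of bile ducts and progenitor cells had 0 higher and 1 lower of 10.

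Several plasma cell genes were lower in 2 of the 3 non-tumour livers. Igha, the heavy chain of IgA, was at 5.299, 7.68 and 9.26 TPM in the normal and 6.11, 2.66 and 0.806 TPM in the non-tumour livers, Ighg2b at 1.76, 3.49 and 2.54 against 2.23, 0.3201 and 0.178 TPM and Jchain, the joining chain of secreted antibodies, at 1.76, 2.46 and 3.01 against 2.32, 0.438 and 0.427 TPM. Non-tumour liver 1 lay within the range of the normal livers for all 3 genes, and livers 2 and 3 were below it. The centred differences were -1.57 for Igha, -1.42 for Ighg2b and -1.20 for Jchain. Of 16 B and plasma cell markers 0 were higher and 2 lower, and 0 and 5 after centring. Without liver 2 the centred counts were 0 and 3, and the centred median went from -0.58 to -0.03. Of 12 T and NK cell markers 0 were higher and 0 lower after centring.

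Interferon-stimulated genes and chemokines were higher in part. Gbp2, a GTPase induced by interferon gamma, was at 0.4098, 0.671 and 1.18 TPM in the normal and 4.35, 4.82 and 2.52 TPM in the non-tumour livers, 1.47 ± 0.27 and 1.10 centred. Oas1a, a sensor of double-stranded RNA, was at 1.64, 1.97 and 1.12 against 4.33, 3.51 and 7.04 TPM (centred 0.80), Ifit3b at 2.14, 0.731 and 1.25 against 4.81, 9.797 and 3.47 TPM (centred 1.13) and Gbp6 at 0.618, 0.964 and 0.338 against 2.17, 2.45 and 1.83 TPM (centred 0.58). All 4 had groups that did not overlap, as 31% of all genes had on the higher side, at levels below 10 TPM. Of 39 such genes 17 were higher and 0 lower, and 5 and 0 after centring. Without liver 2 the centred counts were 11 and 1.

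The chemokine Cxcl9 was at 2.15, 0.895 and 2.22 TPM in the normal and 8.68, 4.95 and 4.64 TPM in the non-tumour livers (centred 0.98), and Cxcl10 at 0.458, 0.5496 and 1.57 against 4.86, 20.3 and 2.44 TPM. Cxcl10 was highest in liver 2, and its centred difference went from 1.69 to 1.00 without it. Of 20 cytokines and chemokines 3 were higher after centring and 0 lower. MHC genes had 7 higher of 18 before and 0 after centring and 2 when liver 2 was also left out, led by the class I gene H2-Q4 at 22.6, 32.6 and 33.99 against 59.7, 49.3 and 49.9 TPM.

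Few acute-phase genes were called after centring. Steap4, a metalloreductase induced by inflammatory signals, was at 6.91, 8.77 and 6.13 TPM in the normal and 20.98, 37.8 and 28.9 TPM in the non-tumour livers, 1.84 ± 0.26 (adjusted p = 0.114) and 1.47 centred. Orm3, an orosomucoid of the acute phase, was at 3.62, 0.728 and 1.12 against 6.61, 27.6 and 9.43 TPM (centred 1.98), and Lcn2, a siderophore-binding protein, at 6.06, 9.695 and 1.31 against 6.26, 47.7 and 281 TPM (centred 2.68, adjusted p = 0.412). Steap4 and Orm3 were higher in all 3 non-tumour livers, as 31% of all genes were, while Lcn2 was high in 2 of them. Of 30 acute-phase genes 2 were higher and 1 lower after centring, against 4.97% and 8.84% of all genes. The share of higher members was thus near that of all genes, and most of the list did not take part. Complement and coagulation genes had 2 higher and 3 lower of 34.

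Male-biased liver genes were lower as a list in non-tumour livers 1 and 2, but not in liver 3. In mice the pulses of growth hormone in males act through STAT5 to maintain male-biased genes such as the major urinary proteins (Mup), and to hold down female-biased ones. Of 20 male-biased genes 0 were higher and 3 lower, and 0 and 6 after centring, where 19 of the 20 were below 0 and the median was -1.51. The median was -0.84 without non-tumour liver 2. Before centring, the median difference of the list from the mean of the normal livers was -1.10, -2.28 and 0.10 in the non-tumour livers. It was 0.08, 0.32 and -0.47 in the normal livers. The summed level of the list overlapped between the groups, at 12720, 16399 and 19699 TPM in the normal and 11515, 17463 and 21295 TPM in the non-tumour livers. Mup11 was at 1394, 1253 and 168 TPM in the normal livers and 52.1, 1.17 and 161 TPM in the non-tumour livers, and Mup12 at 145, 146 and 20.7 against 8.94, 0.661 and 27.5 TPM. Normal liver 3 was itself far below the other normal livers, so that the groups overlapped for Mup12. The Mup genes are near-identical copies whose reads the counting could split, and the 17 tested had 3 lower after centring with a median of -2.06, or -0.89 without liver 2.

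Other male-biased genes were less extreme. Ugt2b38, a glucuronosyltransferase, was at 3.97, 8.33 and 2.58 TPM in the normal and 0.515, 0.389 and 1.58 TPM in the non-tumour livers (centred -2.02, adjusted p = 0.1903). Cyp7b1, an oxysterol hydroxylase, was at 191, 264 and 139.7 against 65.8, 30.4 and 173 TPM (centred -1.81), with liver 3 inside the normal range. Igf1, the hormone the liver secretes under growth hormone, was at 187, 170.4 and 211 against 107, 63.2 and 115 TPM, -1.03 ± 0.27 and -1.40 centred, with every non-tumour liver below every normal liver. Socs2, a feedback inhibitor and STAT5 target, was at 4.605, 4.69 and 18.99 against 2.75, 1.45 and 2.61 TPM (centred -1.80), also with no overlap. Stat5b was at 9.57, 10.2 and 8.35 against 15.1, 19.4 and 12.2 TPM (centred 0.28, adjusted p = 0.527). Of 19 genes of the growth hormone and IGF axis 0 were higher and 3 lower after centring.

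Female-biased genes went both ways. Of 19 tested 6 were higher and 2 lower, and 4 and 2 after centring, with 7 and 2 without liver 2. Cyp2a4, a steroid hydroxylase of female liver, was at 10.2, 8.09 and 7.99 TPM in the normal and 215, 35.5 and 36.8 TPM in the non-tumour livers (centred 2.41), and Sult2a7, a sulfotransferase, at 2.77, 4.67 and 0.975 against 10.8, 17.8 and 24.96 TPM (centred 1.99). Slc22a26, an organic anion carrier, was at 0.849, 0.534 and 0.227 against 2.15, 3.07 and 2.23 TPM (centred 0.81). These 3 were higher in every non-tumour liver, as 31% of all genes were. Cyp2c40 and Cyp2c69, members of a P450 cluster of similar genes, were the lower ones, with Cyp2c40 at 4.19, 8.12 and 5.55 against 1.85, 0.601 and 2.29 TPM (centred -1.83).

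Drug-metabolising genes went both ways, and the members named in this paragraph are on the higher side. Cyp2c29, a P450 of pericentral hepatocytes, was at 84.6, 88.7 and 146 TPM in the normal and 249, 445 and 319 TPM in the non-tumour livers, 1.66 ± 0.31 and 1.29 centred. Of 33 genes of P450 families 1 to 3, 2 were higher and 7 lower after centring, and 4 and 6 without liver 2. Over all genes the shares were 4.97% higher and 8.84% lower, and 5.64% and 7.74% without liver 2. Ugt1a1, which conjugates bilirubin, was at 5.099, 8.4999 and 4.95 against 14.1, 43.004 and 35.4 TPM (centred 1.67). Gsta3, a glutathione transferase, was at 148, 145 and 153 against 427, 1427 and 329.8 TPM, and its centred difference was 1.60 with liver 2 and 1.01 (adjusted p = 0.1898) without it. The normal livers were within a narrow range for Gsta3, and all 3 non-tumour livers lay above it. Of 27 conjugation and NRF2 genes 2 were higher and 1 lower after centring. The median of that list went from 0.71 to 0.04 without liver 2, which held 8423 TPM of Gstm3, 13320.2 TPM of Gstm1 and 5896 TPM of Cyp2a5.

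NRF2 acts on such genes through the antioxidant response element (ARE), and the Gsta3 promoter is shown because it holds the letters of that element in the gene of the list with the most even normal livers among those printed here. The sequence is from RefSeq on GRCm38.p6, chr1:21240335-21240634, plus strand, with the match in capitals:

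Gsta3: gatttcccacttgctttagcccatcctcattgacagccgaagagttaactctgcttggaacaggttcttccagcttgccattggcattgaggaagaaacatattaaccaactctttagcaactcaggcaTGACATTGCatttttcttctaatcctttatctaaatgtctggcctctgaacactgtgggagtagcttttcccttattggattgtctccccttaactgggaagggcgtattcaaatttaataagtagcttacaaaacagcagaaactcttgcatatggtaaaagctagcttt

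The letters searched were TGACNNNGC on both strands, and the match starts at position -121 from the start site. Of the 24 genes of the conjugation and NRF2 list found in the table, 7 hold a match in 7 of their 30 promoters (23.3%), beside 12.4% of all 32851 promoters.

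Pericentral genes went both ways, while most periportal genes were below 0 after centring. Of 26 pericentral genes 4 were higher and 3 lower after centring, and of 26 periportal genes 0 were higher and 0 lower, with 0 and 2 without liver 2. Below 0 after centring were 20 periportal genes, with a median of -0.36 and, without liver 2, -0.15. Before centring 13 were above 0. Their median then differed from the normal mean by 0.06, -0.40 and 0.29 in the non-tumour livers, within the normal range of -0.50 to 0.70. Rnf43, a Wnt target that restrains Wnt receptors, was at 2.65, 3.16 and 2.03 TPM in the normal and 4.62, 8.07 and 7.16 TPM in the non-tumour livers (centred 0.68). Cyp7a1, the rate-limiting enzyme of bile acid synthesis, was at 3.32, 2.67 and 8.88 against 11.6, 15.3 and 51.6 TPM (centred 1.66, adjusted p = 0.3196), with no overlap between the groups. Of 24 bile acid genes 2 were higher and 1 lower, and of 29 genes of the urea cycle and amino acid breakdown 1 was higher and 0 lower. Hepatocyte markers had 0 higher and 1 lower of 12. After centring 9 of them were below 0, with a median of -0.35 and, without liver 2, -0.28, while before centring 6 were above 0.

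Clock, stress and metal genes gave scattered members. Rora, a nuclear receptor of the clock, and Clock, one of its core activators, were at 12.7, 11.1 and 16.01 against 9.44, 10.4 and 8.81 TPM and 4.903, 3.99 and 3.301 against 3.03, 3.54 and 1.91 TPM (centred -0.80 and -0.79). Of 9 clock genes with a morning peak 1 was higher and 3 lower after centring, and of 15 with an evening peak 0 and 0, or 2 and 0 without liver 2. Hspa1b and Hsp90aa1, both chaperones of the heat shock response, went opposite ways, at 2.05, 2.17 and 1.37 against 3.95, 6.42 and 9.42 TPM and 8.58, 3.81 and 6.7995 against 3.13, 4.21 and 2.55 TPM (centred 0.98 and -1.12). Alas2, the erythroid enzyme of haem synthesis, was at 19.1, 27.3 and 17.2 against 43.8, 79.9 and 65.5 TPM (centred 1.14), and the copper pump Atp7b at 3.51, 3.68 and 3.71 against 6.89, 8.23 and 6.56 TPM (centred 0.45). The early response gene Ier5 was at 3.01, 2.27 and 2.46 against 8.54, 13.8 and 4.56 TPM (centred 0.99). Onecut2, a hepatocyte transcription factor, was at 21.3, 14.7 and 12.7 against 10.95, 10.6 and 9.66 TPM (centred -0.94). Unfolded protein response genes had 0 higher and 1 lower of 29, and 0 and 3 without liver 2.

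The study's 5 candidate targets of miR-181 were not called in either direction, and the study chose them partly on these samples. Cbx7, a Polycomb protein, was at 1.66, 2.099 and 3.85 TPM in the normal and 5.197, 0.906 and 3.22 TPM in the non-tumour livers, a difference of 0.11 ± 0.45 (adjusted p = 0.887) that turned to -0.27 with centring. Tef, a clock-controlled transcription factor, was at 15.1, 24.4 and 21.1 against 23.2, 9.96 and 41.1 TPM, 0.10 ± 0.47 and, again with the sign turned, -0.28 centred. Ndrg2 was at 564, 486 and 684 against 659, 931 and 779.9 TPM (0.45 ± 0.23) and Aldh3a2 at 193, 231 and 88.6 against 199.6, 326 and 231 TPM (0.64 ± 0.39), and both were smaller after centring, at 0.07 and 0.26. Of 22 Polycomb genes 0 were higher and 1 lower after centring.

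**Figure D5:**
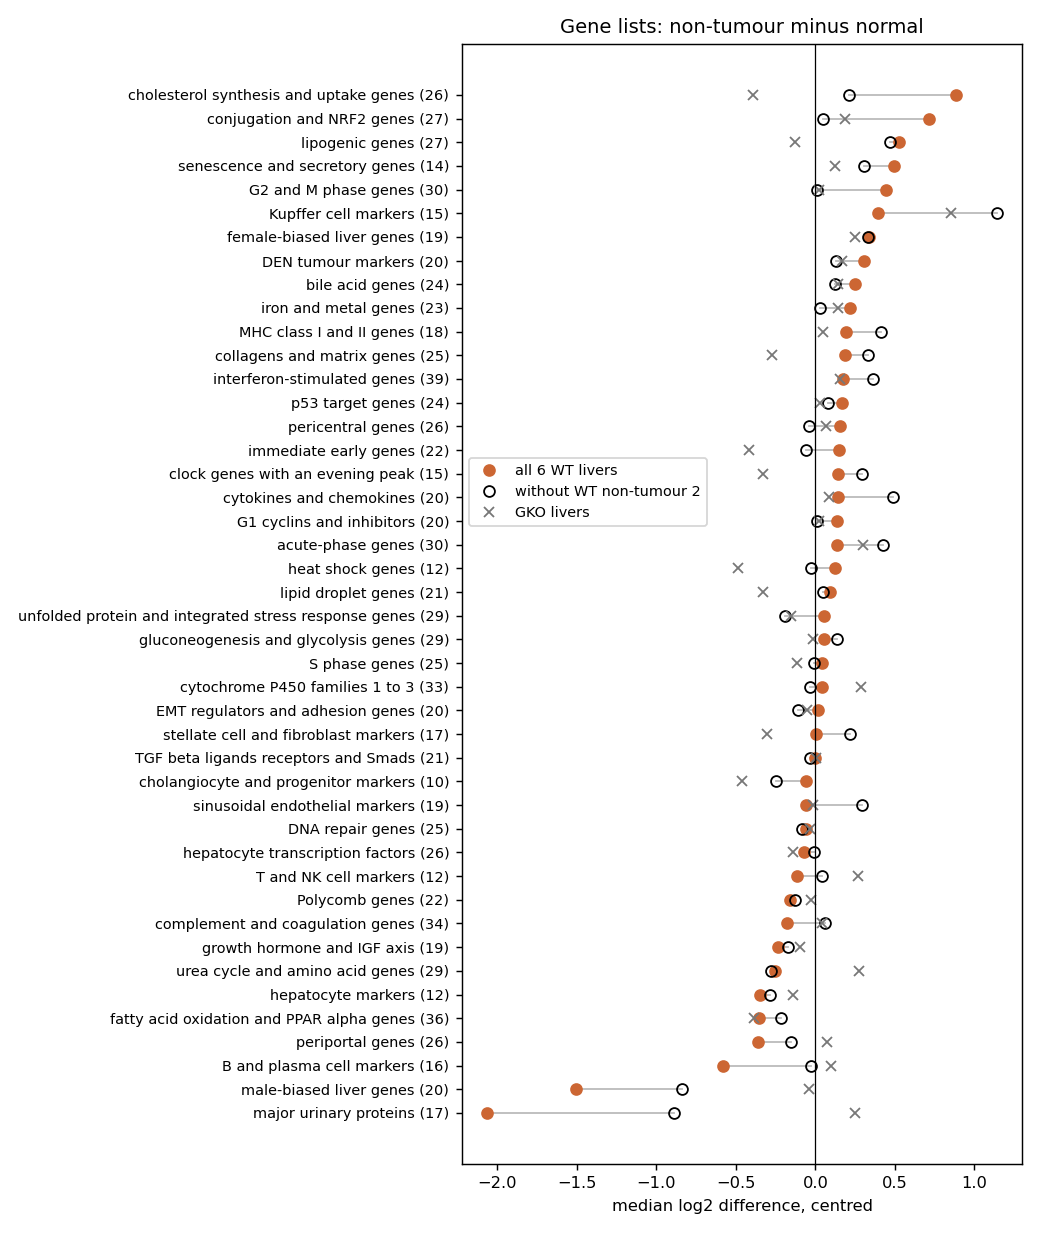
Median centred log2 difference of the gene lists with 10 or more tested members, number tested with all 6 WT livers in brackets, for all 6 WT livers, for 5 WT livers without WT non-tumour liver 2 and for the GKO livers. The horizontal axis is on the log2(TPM+1) scale after centring each library. Medians without WT non-tumour liver 2 are over the members that pass the level filter without it, which are 16 of the G2 and M phase genes. Cholesterol, conjugation and G2 and M phase genes move towards 0 without WT non-tumour liver 2, Kupffer cell markers move up, and in WT the male-biased and urinary protein lists stay below 0 without it.

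The same comparison in GKO livers, which shares no sample with the WT one, called no gene at the adjusted threshold of 13530 tested in limma. At an unadjusted p under 0.05, 580 (4.29%) were higher and 123 (0.909%) lower, and 405 (2.99%) and 282 (2.08%) after centring. Of 653 genes higher in WT after centring and tested in both, 503 (77.0%) were above 0 in GKO after centring, and of 1149 genes lower in WT, 919 (80.0%) were below 0. Over all 12848 genes tested in both, 46.5% were above 0 in GKO. The direction after centring was thus mostly shared. Centring lowered the differences in both comparisons. The median over all genes tested went from 0.32 to -0.05 in WT and from 0.08 to -0.03 in GKO. How much of the shared direction follows from centring was not tested. The GKO livers gave a centred median of 0.19 for the first set and -0.18 for the second.

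A test of the difference between the 2 DEN effects, WT minus GKO, called 0 of 13488 genes at the adjusted threshold in limma. At an unadjusted p under 0.05 the effect was larger in WT for 691 genes (5.12%) and smaller for 139 (1.03%), and after centring for 230 (1.71%) and 408 (3.02%). Lipogenic genes had 14 of 27 larger and 0 smaller, and 9 and 0 after centring. Cholesterol genes had 15 of 26 larger and 0 smaller, and 9 and 0 after centring. Without WT non-tumour liver 2 the centred counts were 7 and 0 for the lipogenic list and 9 and 0 of 25 for the cholesterol list, whose WT median fell as given above. In the GKO comparison by itself 0 lipogenic genes were higher and 1 lower, and 0 cholesterol genes higher and 5 lower.

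Pklr in the GKO livers was at 9.68, 13.1 and 14.3 TPM in the normal and 18.2, 8.68 and 12.8 TPM in the non-tumour tissue, a difference of 0.05. The WT effect exceeded it by 1.93 (adjusted p = 0.724), and by 1.66 after centring. Aacs was at 12.5, 2.96 and 5.46 against 2.75, 2.32 and 4.31 TPM in GKO, with a difference between the effects of 2.82 (adjusted p = 0.724), and Mid1ip1 at 14.5, 18.5 and 20.98 against 15.7, 12.1 and 14.4 TPM, with 1.58 (adjusted p = 0.724). In GKO none of these 3 genes had all non-tumour livers above all normal livers, which 7.12% of all genes had. For Aacs every WT normal liver was below every GKO normal liver, so its difference between the effects holds a difference between the normal livers.

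Collagens and matrix genes also had larger WT effects, with 8 of 24 before and 6 after centring and none smaller, and 4 after centring without WT non-tumour liver 2. Col1a1 was at 2.74, 4.22 and 1.898 TPM in GKO normal and 1.19, 1.46 and 0.435 TPM in GKO non-tumour livers, lower after DEN where WT was higher, and the difference between the effects was 2.24 (adjusted p = 0.724). Col3a1 followed with 5.26, 7.05 and 2.01 against 2.22, 2.59 and 1.11 TPM and 2.13 (adjusted p = 0.724). The WT normal livers were below the GKO normal livers for both collagens, so the difference between the effects holds a difference between the normal livers.

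At the adjusted threshold the test called no macrophage or arrest gene either. Cdkn2a was at 0.731, 0.529 and 0 TPM in GKO normal and 2.51, 0.9801 and 2.22 TPM in GKO non-tumour livers, a difference of 1.03 (adjusted p = 0.801), and the effects differed by 0.62 (adjusted p = 0.724). C1qc was at 29.1, 14.3 and 15.03 against 126, 21.3 and 50.4 TPM in GKO, with 1.43 (adjusted p = 0.952) and a difference between the effects of 0.41 (adjusted p = 0.878). Of 16 Kupffer cell markers none had an unadjusted p under 0.05 in either direction. Of 15 senescence and secretory genes 3 had a larger and 0 a smaller WT effect at that level, and 1 and 0 after centring. Of 24 p53 targets 1 had a larger WT effect, Phlda3, at 1.57, 3.42 and 1.13 against 5.24, 2.29 and 2.39 TPM in GKO and a difference of 1.30 (adjusted p = 0.724). Mup11 was at 3582, 794 and 291 against 854, 463 and 2101 TPM in GKO, and the effects differed by -4.65 (adjusted p = 0.724). Mitochondrial genes took 15.7%, 8.80% and 17.5% of TPM in GKO normal and 9.93%, 21.4% and 9.94% in GKO non-tumour livers, so that the groups overlapped.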

How the data were processed

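Total RNA of frozen liver was extracted with Trizol, and the submitters' processing notes name STAR 2.7.3a, featureCounts 2.0.0 and the mm10 build; RNA selection and strand setting are not given in the sources used here. The authors deposited a table of TPM values for 18 samples, each summing to 1000000. All columns matched a sample by title, and 0 columns were without one.

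Genes averaging 0.5 TPM or more over the samples compared were tested with limma 3.58.1 (lmFit and eBayes with a trend, R 4.3.3) on log2(TPM+1), 2-sided, with Benjamini-Hochberg adjustment over all genes tested at a threshold of 0.05. The interaction term compared the DEN effects of WT and GKO livers over 12 samples. Shares per sample were compared by exact permutation. The depth was recovered from the low TPM values, of which 97.95% to 98.5% per library were whole reads within 0.02, and gave 11925033 to 19178365 reads in the 6 WT livers. A gene with 3 reads or fewer in both groups was given no fold. The table is not a count table, so limma voom on the recovered reads was an alternative only.

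The genes named are the 12 smallest p-values in each direction with groups that did not overlap and a log2 difference of at least 1, after any past the adjusted threshold, together with up to 4 members of each of 52 lists with the smallest p, the 5 candidates of the study, and Afp, Gpc3, Cyp2e1, Cdkn1a and Mgmt. Some genes that this rule takes are not reported here. The samples, lists and genes were chosen with earlier results of these data known, so no list is independent evidence. Of 1117 list genes, 1112 were found and 919 tested. In promoters, letters were searched on both strands in RefSeq sequences. The code was tested on simulated data with known differences.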

Additional observations from a re-analysis of the deposited data

How the results depend on the processing

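The count of genes past the adjusted threshold was 1 as reported. It was 46 with all 18 samples in one fit, 3 with a mean of at least 5 TPM, 4 with a pseudocount of 0.1, and 0 with no filter and with limma voom on recovered reads. It was 0 with median centring and without WT non-tumour liver 2, which was chosen after seeing the data, as was scaling to nuclear protein-coding genes. Leaving out 1 liver at a time gave 0 to 4, with 4 without WT non-tumour liver 2. The count of higher genes at an unadjusted p under 0.05, 3008 as reported, was 1753 at 5 TPM, 668 centred, 749 centred without WT non-tumour liver 2, 859 after quantile normalization, 1926 scaled to nuclear protein-coding genes and 1786 with voom. Leaving out 1 liver gave 1522, without WT normal liver 1, to 3415. Lower genes, 274 as reported, were 134, 1188, 1028, 1001, 425 and 476 under the same settings in that order, and 169, without WT normal liver 1, to 362. Members of the lists that were higher, 208 as reported, were 72 centred, 103 centred without WT non-tumour liver 2 and 86 after quantile normalization, with 120, without WT normal liver 1, to 236 when 1 liver was left out. Lower members, 16 as reported, were 9 at 5 TPM, 58 with both kinds of centring, 43 after quantile normalization, 28 scaled to coding genes, 37 with voom and 27 without mitochondrial genes in the total, with 8 to 34 when 1 liver was left out, the ends being without WT normal liver 2 and without WT non-tumour liver 3. Of the 12 named genes in each direction 6 higher and 4 lower ones remained at 5 TPM. These falls at 5 TPM follow from fewer genes tested, and for the others the cause was not tested.

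The DEN effects of WT and GKO differed for 0 genes as reported and 0 to 2 with 1 liver left out. At an unadjusted p the count was 830, 408 at 5 TPM, 476 with centring and without WT non-tumour liver 2, and 482, without GKO non-tumour liver 2, to 1619, without GKO non-tumour liver 1. It was 534 without WT normal liver 1 and 1431 without WT non-tumour liver 1. The GKO comparison gave 0 genes as reported and 0 to 2 with 1 liver left out, and at an unadjusted p 703, 222 at 5 TPM, and 402, without GKO non-tumour liver 3, to 1008.

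The replicate numbers do not pair the livers, since the deviations of same-numbered WT livers from their group means correlated at 0.16, 0.04 and -0.002, and not every liver correlated best with its own number. With the replicate number as a block 0 genes passed the adjusted threshold, and Mrpl48-ps had an adjusted p of 0.136 in limma.

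Genes with small differences changed sign. Median centring gave -0.20 for Afp, -0.13 for Mgmt, -0.28 for Tef and -0.27 for Cbx7, and quantile normalization -0.11, -0.13, -0.26 and -0.15 in the same order. Centring without WT non-tumour liver 2 gave -0.31 for Afp, -0.043 for Cdkn1a and 0.83 for Clec4f. Tef was at -0.047 scaled to coding genes, -0.10 with voom and -0.029 without mitochondrial genes in the total, and Cbx7 at -0.22 with voom. With 1 liver left out the ranges that cross 0 were -0.044 to 0.54 for Afp, -0.83 to 0.31 for Scd1, -0.36 to 0.61 for Tef, -0.27 to 0.58 for Cbx7 and -0.94 to 1.15 for Clec4f. The cause was not tested. Mrpl48-ps was past the adjusted threshold in 10 of 19 settings and kept its sign in all. Over the 117 genes followed, in the settings where each was tested, 2009 values kept direction and side of the threshold, 16 gained and 9 lost a call, and 23 turned sign.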

Other observations

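Of 14 pancreatic acinar markers 1 passed the level filter and 0 were called, and of 10 adipose and mesothelial markers 3 passed, of which 1 (Cidec, also a lipid droplet gene) was higher before and 0 after centring. Cidec was at 18.4, 23.2 and 12.96 TPM in the WT normal and 51.3, 63.9 and 22.6 TPM in the WT non-tumour livers. The summed level of the adipose and mesothelial list was 1044, 962 and 155 TPM in the WT normal and 3130.4, 1467 and 949 TPM in the WT non-tumour livers. Nearly all of it was Car3, a carbonic anhydrase that liver also expresses, at 1025, 939 and 142 against 3074, 1402 and 927 TPM, with overlap for liver 3. The adipocyte genes Adipoq, Plin1 and Lep were at 0.0887 TPM or less in all 6 livers, and the part of other tissue in the results was not tested. Of 9 erythroid and platelet markers 1 (Alas2) was higher and 0 lower after centring, with 3 and 0 without WT non-tumour liver 2. Of 22 immediate early genes 1 was higher and 4 lower after centring. Of 20 markers of DEN tumours 1, Pkm, was higher and 1 lower after centring, with 3 and 2 without WT non-tumour liver 2.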
